A study of Homo sapiens with 8 samples.

Results

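Small RNA sequencing of H1299 cells counted 945 mature miRNAs, and the 5 described here are hsa-miR-218-5p, hsa-miR-625-5p, hsa-miR-625-3p, hsa-miR-935 and hsa-miR-940. They were selected on the normalized counts of the untreated libraries, from a list of miRNAs that were lower in untreated H1299 cells expressing mutant p53 R273H than in untreated cells with an empty vector. From that list, the miRNAs encoded within the genes SLIT2 and SLIT3, FUT8 and CACNG8 were kept and miR-940 was added. Both arms of the miR-625 hairpin are on the list, so 1 hairpin was read through 2 products. All 5 had reads in all 8 libraries.

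The H1299 line, established from a lymph node of a non-small cell lung carcinoma, makes no p53. H1299/EV cells had been infected with an empty vector and were obtained from another laboratory. H1299/R273H cells were instead transfected with a vector in which the pCMV promoter drives R273H mutant p53, and were grown from colonies that survived G418. The study asked which miRNAs differ in cells with the mutant protein, and each line was sequenced untreated and after 24 h of etoposide, a topoisomerase II poison that breaks DNA. The labels give the etoposide dose as 10 µM in one field and as 10 mM in another. The 4 groups were EV untreated, EV etoposide, R273H untreated and R273H etoposide, with 2 libraries each. Effects of the mutant protein and of the separate history of the lines (source laboratory, infection or transfection, colony selection) cannot be told apart in this design. The labels number the libraries of a group without saying that they came from separate cultures, so p-values measure the spread between these libraries. The mRNAs of the host genes were not analysed here.

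A miRNA is cut as a hairpin from a longer transcript, and 1 strand of the stem, the 5p or the 3p arm, is loaded into an Argonaute protein. Bases 2 to 8 of the loaded strand, the seed, choose the mRNAs that it represses. A hairpin that lies in an intron of a protein-coding gene can be made from the host's own transcript or from a promoter of its own. SLIT2 and SLIT3 encode secreted ligands of the ROBO receptors, FUT8 encodes the enzyme that adds core fucose to N-glycans, and CACNG8 encodes an auxiliary subunit of AMPA glutamate receptors. miR-218 is best known as a motor neuron miRNA and as one that is often low in carcinomas.

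The mature sequences are shown because the seed is what each miRNA would use on its targets and because the arms of miR-625 pair with each other. They are from RefSeq (table of GRCh38.p14), 5′ to 3′, with the seed in capitals.
miR-218-5p: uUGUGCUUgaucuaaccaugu
miR-625-5p: aGGGGGAAaguucuauagucc
miR-625-3p: gACUAUAGaacuuucccccuca
miR-935: cCAGUUACcgcuuccgcuaccgc
miR-940: aAGGCAGGgcccccgcucccc

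The 5 seeds all differ, and none is shared with another miRNA of the tables that was matched in RefSeq (825 of 945 were). In RefSeq itself, the seed of miR-940 occurs in 1 further miRNA. The arms of miR-625 are perfectly complementary over a run of 20 bases. Base composition varied widely. The GC content was 38.1% in miR-218-5p, 45.5% in miR-625-3p, 47.6% in miR-625-5p, 65.2% in miR-935 and 81.0% in miR-940, against a median of 50% over the matched miRNAs. Only 15 of the matched miRNAs had a higher GC content than miR-940.

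In GRCh37, the build of the deposited data, miR-218-5p matched at 2 places. One was MIR218-1 on chromosome 4 (20529898 to 20530007, plus strand), in an intron of SLIT2. The other was MIR218-2 on chromosome 5 (168195151 to 168195260, minus strand), in an intron of SLIT3. The reads of miR-218-5p therefore cannot be assigned to one host gene. MIR625 lies on chromosome 14 (65937820 to 65937904, plus strand) in an intron of FUT8. Each arm of miR-625 also matched at 2 places, both within MIR625. These were its own arm on the plus strand and the other arm on the minus strand. In the genome the arms are thus told apart by the strand of a read, and how the alignment treated strand was not tested. MIR935 lies on chromosome 19 (54485561 to 54485651, plus strand) within CACNG8, where the annotation places it over coding exon sequence of the 1 transcript that spans it. MIR940 lies on chromosome 16 (2321748 to 2321841, plus strand) within the long noncoding RNA gene MIR3677HG, over an exon of 1 of its 3 spanning transcripts. By this annotation, intronic location in a protein-coding gene holds for miR-218-5p and for both arms of miR-625, while miR-935 overlaps an exon and the host of miR-940 is noncoding.

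The opposite arms and the other miRNAs of these hosts were almost without reads. The opposite arms of miR-218 differ between the copies, so they could have told SLIT2 from SLIT3. Their sequences are as follows.
miR-218-1-3p: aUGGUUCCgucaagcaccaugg
miR-218-2-3p: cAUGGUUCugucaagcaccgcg
Across all 8 libraries miR-218-1-3p had 1 read, in R273H untreated replicate 2, and miR-218-2-3p had 1 read, in EV untreated replicate 1. miR-585-5p, from SLIT3, and miR-3677-3p, from the host of miR-940, had 1 read each. None of these 4 reads allows a comparison, and neither copy of miR-218 could be ranked above the other.

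The libraries held 234545 to 579367 reads on annotated features, of which 213007 to 536991 were on miRNAs, and miR-21-5p took 30.6% to 44.5% of the latter. The 5 miRNAs together had 3683 reads, 233 to 998 in a library, which was 0.0529% to 0.269% of the miRNA reads. miR-625-5p had the most reads, 144 to 602 in a library. miR-218-5p had 44 to 172, miR-625-3p 20 to 127, miR-935 11 to 60 and miR-940 8 to 37. EV etoposide replicate 1 and R273H etoposide replicate 2 stood apart from the rest. Their size factors were 4.02 and 4.71 per 1000000 miRNA reads, against 2.09 to 2.97 in the other 6 libraries, and they had the 2 lowest shares of miR-21-5p. A size factor is the number by which a library's reads are divided to make libraries comparable, and for these 2 libraries it scales values down more than division by the miRNA reads (RPM, reads per 1000000 miRNA reads) does.

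In the untreated cells all 5 miRNAs were 2.52-fold to 4.19-fold lower in R273H than in EV, by the ratio of the group means. These libraries chose the 5 miRNAs, so the values of this comparison are a description and carry no test. They are the deposited normalized counts, with 2 libraries in each group, and fold changes are on the scale of log2(normalized count + 1), which understates the change of low miRNAs. For miR-218-5p the normalized counts were 119 and 147 in EV and 55.4 and 39.1 in R273H (132.9 ± 19.5 against 47.3 ± 11.5, SD, n = 2). The corresponding difference on the log2 scale was -1.48 (standard error 0.38). Lower levels in R273H were a property of both libraries, and the same held for each of the other 4.

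miR-625-5p had 417 and 292 normalized counts in untreated EV and 148 and 133 in untreated R273H, a log2 fold change of -1.31 (standard error 0.33). The other arm, miR-625-3p, had 87.9 and 76.5 in EV and 21.6 and 17.8 in R273H, a log2 fold change of -2.01 (standard error 0.41). Both arms were lower, and the 3p arm had the larger fold of the pair, 4.18-fold against 2.52-fold. miR-935 had 41.5 and 51.0 normalized counts in EV and 12.3 and 9.78 in R273H, a log2 fold change of -1.97 (standard error 0.46). miR-940 had 25.6 and 30.3 in EV and 8.21 and 7.11 in R273H, a log2 fold change of -1.74 (standard error 0.49). The R273H values of miR-940 rest on 8 reads in each library.

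Among the 304 miRNAs tested in the untreated cells, 9.54% were lower in R273H at an adjusted p-value under 0.05 (limma). From the lowest log2 fold change upwards, miR-625-3p was at rank 6, miR-935 at rank 9, miR-940 at rank 15, miR-218-5p at rank 20 and miR-625-5p at rank 27. A log2 fold change of -1 or lower was found for 11.8% of the 304, and both R273H libraries lay below both EV libraries for 26.6%. All 5 met these 3 criteria, and nothing can be read from that, since these libraries chose them.

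On a common scale for the 8 libraries, with size factors computed over all of them, every R273H library lay below every EV library for each of the 5 miRNAs, treated or not. Of all 321 miRNAs with a mean of at least 3 on this scale, 14.6% showed this pattern. The untreated libraries, which chose the 5 miRNAs, are 4 of these 8, so their count is a description and is not read against that share. miR-218-5p ranged from 135 to 174 normalized reads in the 4 EV libraries (median 157) and from 41.6 to 78.5 in the 4 R273H libraries (median 54.2). miR-625-5p ranged from 316 to 471 in EV (median 351) and from 99.2 to 153 in R273H (median 131). miR-625-3p ranged from 51.9 to 99.4 in EV (median 91.5) and from 18.9 to 25.3 in R273H (median 22.7). For these 3 miRNAs the ranges of the lines did not overlap.

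miR-935 ranged from 44.4 to 56.6 normalized reads in EV (median 47.1) and from 10.4 to 23.7 in R273H (median 15.0). miR-940 ranged from 11.8 to 37.4 in EV (median 31.3) and from 7.56 to 11.3 in R273H (median 8.5), so that its lowest EV library and its highest R273H library nearly met. As RPM, the lines did not overlap for miR-625-5p (733 to 1268 in EV, 319 to 467 in R273H) and miR-625-3p (121 to 394 in EV, 46.5 to 109 in R273H), a pattern of 7.17% of the 321 that the untreated libraries again enter. They overlapped for miR-218-5p (320 to 699.5 in EV, 108 to 370 in R273H), miR-935 (110 to 178 in EV, 26.6 to 112 in R273H) and miR-940 (27.6 to 150.2 in EV, 17.7 to 40.1 in R273H). The R273H library that overlapped was in each case R273H etoposide replicate 2. For miR-940 the EV library that overlapped was EV etoposide replicate 2, in which this miRNA had 10 reads, and R273H etoposide replicate 1 lay above it too.

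**Figure D1:**
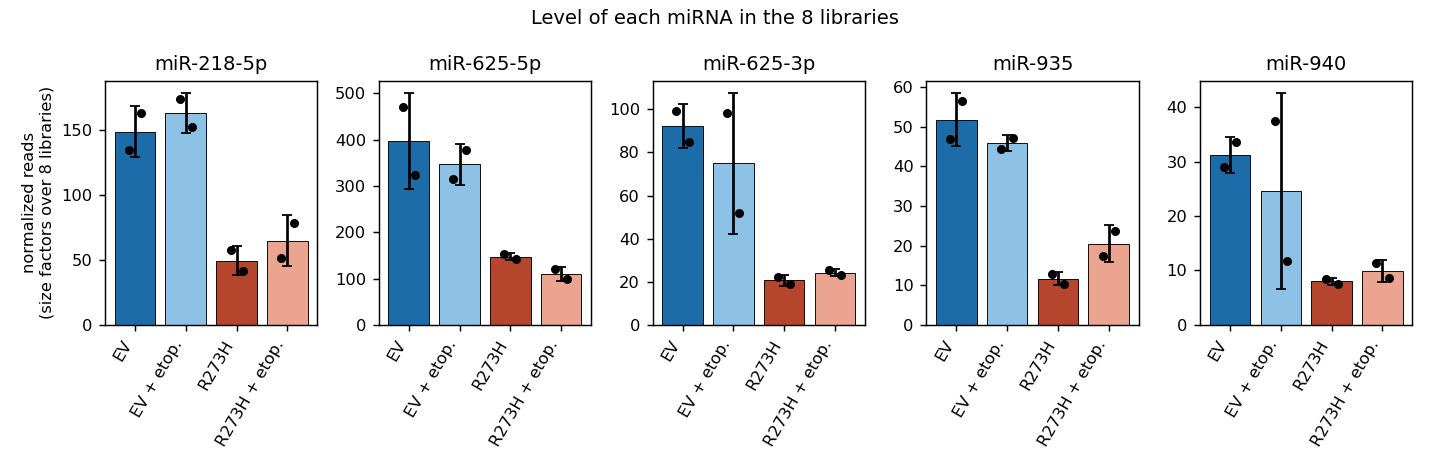
Level of each of the 5 miRNAs (normalized reads, with size factors over all 8 libraries, separate linear axes) in EV and R273H cells, untreated or with etoposide. Bars are means, points are the 2 libraries and error bars are SD; for each miRNA all 4 R273H points lie under all 4 EV points, and the closest approach is that of miR-940 (11.8 in EV, 11.3 in R273H).

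The order of the group means on the common scale differed between the miRNAs within each line. For miR-218-5p the order was EV etoposide (163.2 ± 15.5), EV untreated (148.7 ± 19.8), R273H etoposide (64.8 ± 19.3) and R273H untreated (49.4 ± 11.1; normalized reads, mean ± SD, n = 2). For miR-625-5p it was EV untreated (397 ± 104), EV etoposide (347 ± 44), R273H untreated (147.2 ± 7.7) and R273H etoposide (110.1 ± 15.4). The other 3 had the same order as each other, with EV untreated first, then EV etoposide, R273H etoposide and R273H untreated. The 2 EV groups overlapped for all 5 miRNAs. As RPM this order changed. EV etoposide then had the highest mean for all 5, and R273H etoposide was above R273H untreated for all 5, with means of 413 and 344 RPM for miR-625-5p. The order of treated and untreated cells within a line thus depends on the scaling.

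The rule that chose the 5 miRNAs used the untreated comparison and not that of the treated cells, although earlier results of all libraries were known when they were named. In the etoposide-treated libraries 4 of the 5 were lower in R273H than in EV at an adjusted p-value under 0.05. These were miR-218-5p, miR-625-5p, miR-625-3p and miR-935, at 2.28-fold to 3.21-fold by the ratio of the means. Of all 333 miRNAs tested, 11.4% were lower at this threshold. The treated cells are of the same lines in which the 5 were chosen as lower. Counts of the 5 in the treated libraries are therefore not read against the shares over all miRNAs. No deposited table holds both treated groups, so the reads were recovered from the tables and divided by size factors over these 4 libraries. The test was limma on log2(normalized reads + 1), with Benjamini-Hochberg adjustment over the 333 miRNAs. The smallest p-value of an exact two-sided permutation test is 0.333 for groups of 2 and 2, and limma, which pools the spread over all miRNAs, was used for this reason.

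miR-625-5p had 352 and 453 normalized reads in the 2 treated EV libraries and 140.0 and 110.7 in the 2 treated R273H libraries. The log2 difference was -1.67 (standard error 0.31, 95% interval -2.34 to -1.01, adjusted p = 0.00274, limma), at rank 16 of 333 from the lowest. The other arm, miR-625-3p, had 109.6 and 62.2 in EV and 29.2 and 25.8 in R273H, a log2 fold change of -1.55 (standard error 0.38, 95% interval -2.35 to -0.76, adjusted p = 0.0114, limma). Both arms of the hairpin were again lower, with intervals that cover each other's value. The EV libraries held 194 and 182 normalized reads of miR-218-5p and the R273H libraries 59.2 and 87.6, a log2 fold change of -1.37 (standard error 0.32, 95% interval -2.06 to -0.69, adjusted p = 0.00999, limma).

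miR-935 had 49.6 and 56.6 normalized reads in the treated EV libraries and 20.0 and 26.5 in the treated R273H libraries. Its log2 fold change was -1.17 (standard error 0.38, 95% interval -1.97 to -0.37, adjusted p = 0.0429, limma), close to the threshold, and the call was lost in 12 of 15 alternatives. Among these were a pseudocount of 0.5 (adjusted p = 0.0528), the fit of all 8 libraries (0.0557), equal upper quartiles (0.116), DESeq2 (0.154) and the replicate block (0.162). miR-940 did not pass it. Its EV libraries had 41.8 and 14.1 normalized reads, which differed more from each other than the lower of them did from the R273H libraries, with 13.1 and 9.51. Its log2 fold change was -1.07 (standard error 0.52, 95% interval -2.17 to 0.03, adjusted p = 0.170, limma). The R273H libraries lay below the EV libraries for all 5 miRNAs, as they did for 26.7% of the 333.

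**Figure D2:**
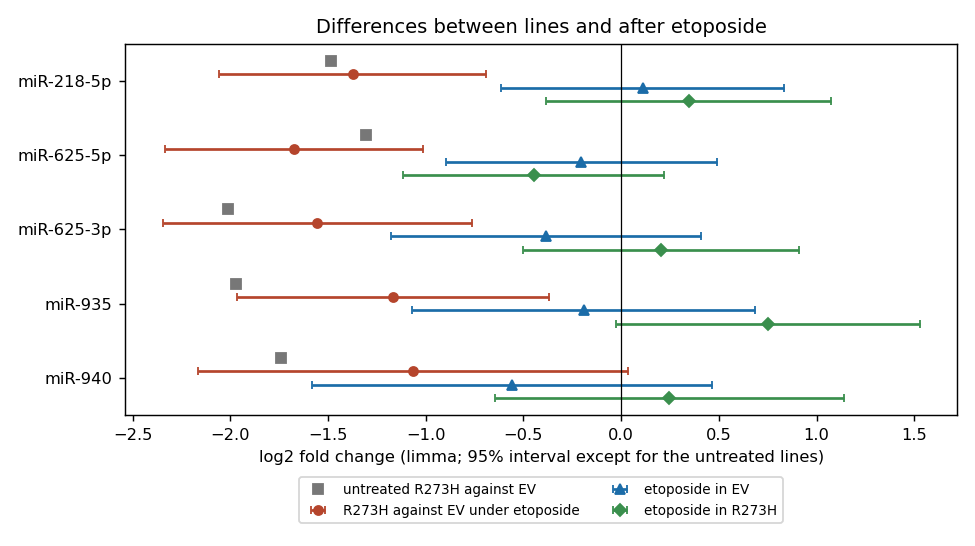
Log2 fold changes from limma (horizontal axis) of the 5 miRNAs in the 4 comparisons. Lines are 95% intervals, and the untreated lines, whose libraries chose the miRNAs, are drawn without one; under etoposide the interval between the lines ends below 0 for all but miR-940 (-2.17 to 0.03), and all 10 intervals for the effect of etoposide include 0.

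The direction of these differences held under each of the 15 alternatives tried, but the calls did not. The log2 fold change lay between -1.65 and -1.06 for miR-218-5p, between -1.85 and -1.36 for miR-625-5p, between -1.96 and -1.15 for miR-625-3p, between -1.36 and -0.86 for miR-935 and between -1.81 and -0.32 for miR-940. Leaving out 1 library left no call without EV etoposide replicate 1 and none without EV etoposide replicate 2, with adjusted p-values of 0.05885 or more (limma). Without R273H etoposide replicate 1 the only call was miR-625-5p (adjusted p = 0.0179, limma), and without R273H etoposide replicate 2 it was miR-218-5p (adjusted p = 0.0436, limma). Those fits called 21, 9, 6 and 9 of all 333 miRNAs, against 64 with all 4 libraries. miR-940 was the most dependent on 1 library, with a log2 fold change of -0.32 without EV etoposide replicate 1 and of -1.81 without EV etoposide replicate 2.

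Scaling moved the values of all miRNAs together. The median log2 fold change of the 333 was 0.08, and it rose by 0.27 as RPM, where none of the 5 was called and the adjusted p-values ran from 0.160 for miR-625-5p to 0.681 for miR-940 (limma). The split of all calls was 38 lower and 26 higher with the size factors, 9 and 10 as RPM, and 23 and 46 with equal upper quartiles. Each of these scalings multiplies a library by 1 factor, so relative to that median the 5 differences could change only through the pseudocount. The values that follow are therefore no check on the calls. miR-625-5p was at -1.75 with the size factors and at -1.72 as RPM, miR-218-5p at -1.45 and -1.42, miR-625-3p at -1.63 and -1.61, miR-935 at -1.25 and -1.22, and miR-940 at -1.14 in both. As RPM, the R273H libraries lay below the EV libraries for both arms of miR-625 only, as they did for 15% of the 333.

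With both libraries that stand apart left out, EV etoposide replicate 2 and R273H etoposide replicate 1 remained, which allows values and no test. The log2 difference between these 2 libraries was -1.61 for miR-218-5p, -1.69 for miR-625-5p, -1.06 for miR-625-3p and -1.45 for miR-935. It was -0.11 for miR-940, which rests on 10 and 17 reads. In this pair, 4 of the 5 were at least 2-fold lower in R273H. The share over all 333 miRNAs was 19.8%, and the count of the 5 is again not read against it. As RPM the 5 differences were -1.23, -1.30, -0.70, -1.11 and 0.28 in the same order of miRNAs, so that of miR-940 had the opposite sign.

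**Figure D3:**
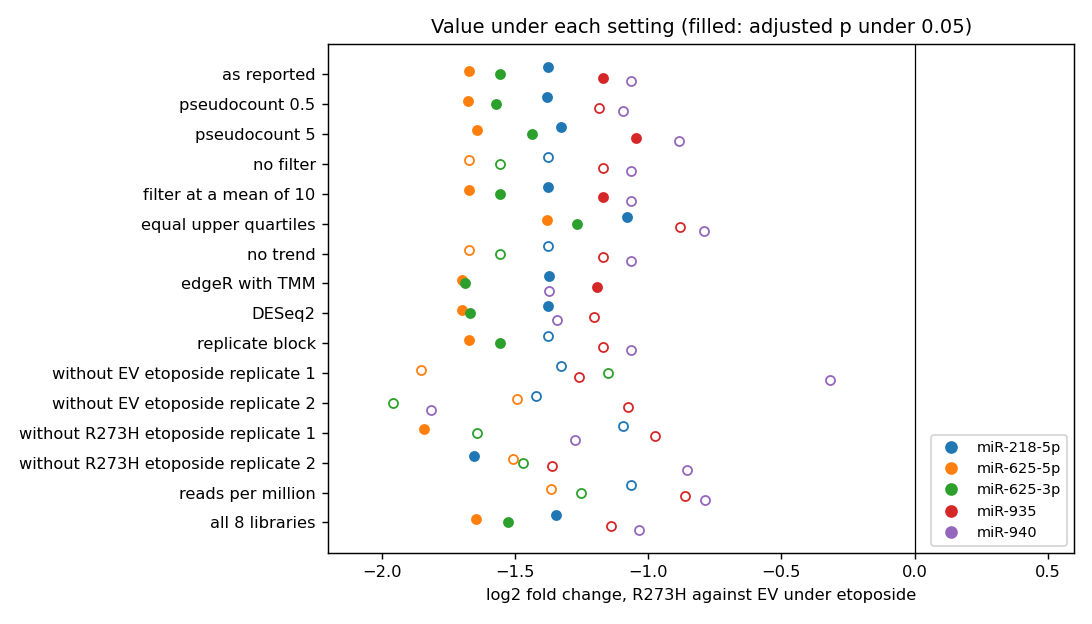
Log2 fold change of R273H against EV in the etoposide-treated libraries (horizontal axis) for the 5 miRNAs (colours) under each setting (rows). Filled points have an adjusted p-value under 0.05; all points lie below 0, miR-940 is open throughout and spans the widest range (-1.81 to -0.32), and fits that leave out 1 library hold at most 1 filled point.

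Etoposide changed none of the 5 miRNAs at an adjusted p-value under 0.05 in either line (limma, edgeR and DESeq2), and none at an unadjusted p-value under 0.05 in limma with the deposited scaling and all 4 libraries. Under other settings of limma, unadjusted p-values under 0.05 were found for miR-935 in R273H (0.0305 as RPM, 0.0293 without R273H untreated replicate 1) and for miR-940 in EV (0.0323 without EV etoposide replicate 1). These comparisons used the deposited tables of each line. They share the untreated libraries that chose the miRNAs, so they are not independent of the choice. In EV, 2 of 296 miRNAs passed the adjusted threshold in either direction (0.676%) and 24 the unadjusted one. In R273H, 0 of 341 passed the adjusted threshold (0%) with limma and edgeR, against 1 with DESeq2, and 31 passed the unadjusted one with limma.

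In EV, miR-218-5p had 111 and 139 normalized counts without and 142 and 127 with etoposide, a log2 fold change of 0.11 (95% interval -0.61 to 0.84, adjusted p = 0.993, limma). miR-625-5p had 388 and 277 without and 257 and 315 with it, a log2 fold change of -0.20 (95% interval -0.90 to 0.49, adjusted p = 0.977, limma). The treated and untreated EV libraries overlapped for these and for the other 3. miR-625-3p had 81.9 and 72.7 without and 80.1 and 43.3 with etoposide (log2 fold change -0.38, 95% interval -1.18 to 0.41). miR-935 had 38.7 and 48.4 without and 36.2 and 39.4 with it (-0.19, 95% interval -1.07 to 0.69). miR-940 had 23.9 and 28.8 without and 30.5 and 9.84 with it (-0.56, 95% interval -1.58 to 0.47), and its treated libraries lay on either side of the untreated ones. The intervals leave room for changes of 2-fold or more in at least 1 direction for 3 of the 5 (miR-625-3p, miR-935 and miR-940).

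In R273H the direction differed between the miRNAs. miR-625-5p had 191 and 177 normalized counts without and 150.1 and 121.0 with etoposide, a log2 fold change of -0.45 (95% interval -1.12 to 0.22, adjusted p = 0.635, limma). Both treated libraries were below both untreated ones, as for 18.8% of the 341. miR-935 had 15.9 and 13.0 without and 21.4 and 28.9 with etoposide, a log2 fold change of 0.75 (95% interval -0.02 to 1.53, adjusted p = 0.495, limma). miR-625-3p had 27.9 and 23.6 without and 31.3 and 28.2 with it (0.20, 95% interval -0.50 to 0.91). For these 2 both treated libraries were above both untreated ones, as for 20.5% of the 341.

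The R273H libraries overlapped for the remaining 2. miR-218-5p had 71.8 and 52.0 without and 63.5 and 95.8 with etoposide (log2 fold change 0.35, 95% interval -0.38 to 1.08), and miR-940 had 10.6 and 9.45 without and 14.0 and 10.4 with it (0.25, 95% interval -0.65 to 1.14). As RPM, the median over all miRNAs tested rose, on the log2 scale, by 0.41 in EV and by 0.69 in R273H. In EV, miR-625-5p, miR-625-3p and miR-935 then turned to 0.22, 0.04 and 0.23. In R273H, miR-625-5p turned to 0.26 and miR-935 reached 1.43 (adjusted p = 0.319, limma). Whether the response to etoposide differs between the lines was not tested, because the interaction contains the untreated comparison that chose the miRNAs.

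The arms of miR-625 were compared through the share of the 5p arm among the reads of both arms, which does not depend on the scaling of a library. In EV untreated the share was 82.6% (95% Wilson interval 79.7 to 85.2) and 79.2% (73.5 to 84.0), and in EV etoposide it was 76.3% (71.6 to 80.4) and 87.9% (84.2 to 90.9). In R273H untreated it was 87.3% (81.3 to 91.5) and 88.2% (82.5 to 92.3), and in R273H etoposide it was 82.7% (77.2 to 87.1) and 81.1% (75.1 to 85.9). The intervals cover counting error only, since PCR copies of a molecule cannot be told apart. The 5p arm was thus the main product of the hairpin in every library. The 2 EV etoposide libraries had the lowest and almost the highest share, with intervals that do not meet, so replicates of a group differed beyond counting error. The group means were 80.9 ± 2.4, 82.1 ± 8.2, 87.8 ± 0.7 and 81.9 ± 1.2 (%, mean ± SD, n = 2) in the same order of groups.

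The spread of the 5p share over the 8 libraries was 11.96 percentage points for miR-625. Among 90 hairpins, miR-625 included, with at least 20 reads over both arms in each library, the median spread was 4.87 points, and 68 had a smaller spread than miR-625. A share near either end of the scale leaves little room for spread, as in miR-21 (99.7% to 99.9%). The rank of miR-625 therefore does not show that its arm use was unusually variable.

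Among all miRNAs with a mean of at least 10 RPM, the profile over the 8 libraries that was most like that of miR-218-5p was the profile of miR-935, and the reverse also held. Likeness was the root mean square difference of log2(RPM + 1) after each miRNA was centred on its own mean, which was 0.22 for this pair against a median of 0.97 over the 313 candidates for miR-218-5p. The second nearest was miR-378a-5p (0.26) for miR-218-5p and miR-30d-5p (0.27) for miR-935. miR-625-3p and miR-940 were also close to each other (0.29), at rank 2 for miR-625-3p and rank 1 for miR-940. The nearest to miR-625-3p was miR-138-5p (0.21), and the second nearest to miR-940 was miR-99a-5p (0.35). For miR-625-5p the nearest were miR-125b-5p (0.20) and miR-100-3p (0.35). The arms of miR-625, products of 1 hairpin, differed by 0.42 and were not each other's nearest, at rank 11 among the candidates for miR-625-5p and rank 10 for miR-625-3p. These values describe 8 points in which all miRNAs share the depth of a library, and they carry no test. The untreated libraries, in which the 5 were chosen as lower in R273H, are 4 of the 8 points, so likeness among the 5 is in part fixed by the choice.

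Other miRNAs encoded in protein-coding genes were found on both sides. The list held 63 miRNAs with a host gene named from general knowledge, of which 62 were measured, as 114 mature products. By the annotation used, miR-328 and miR-338 did not lie within the named host on its strand, and the pair of miR-744 and its host was not in it. Their products were kept. In the treated cells, 90 of these products were tested between R273H and EV, of which 8 were higher, 8 were lower and 74 did not pass an adjusted p-value of 0.05 (limma). The 8 lower ones were 8.89% of the 90, near the 11.4% of all 333. The median log2 fold change of the 90 was 0.26, beside 0.08 for all 333 and -1.37 for the 5 miRNAs. The 5 were chosen as lower in R273H in untreated cells of these lines, so their median is not read against the others. In the untreated cells, 10 of 89 products of the list were higher and 6 lower, with a median of 0.25 beside 0.10 for all 304. Etoposide changed 1 of 82 in EV (lower, median -0.04) and 0 of 93 in R273H (median 0.04, 6 at an unadjusted p-value under 0.05 with limma).

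**Figure D4:**
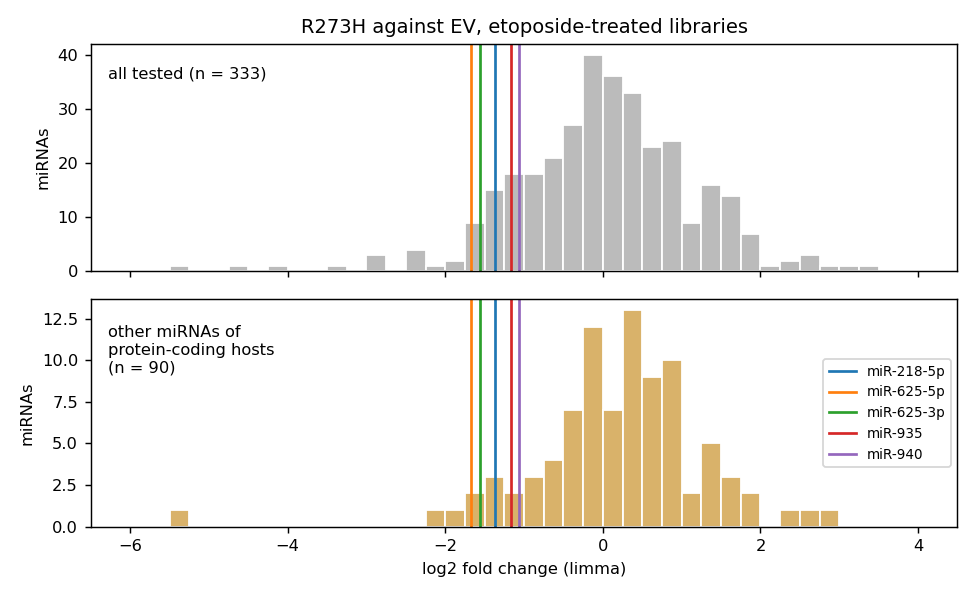
Number of miRNAs (vertical axis) by log2 fold change of R273H against EV in the etoposide-treated libraries, for all 333 tested (upper panel) and for 90 other miRNAs of the list of protein-coding host genes (lower panel). Vertical lines mark the 5 miRNAs, which were chosen as lower in untreated R273H cells. They run from -1.67 (miR-625-5p) to -1.07 (miR-940), on the lower side of both distributions, whose medians are 0.08 and 0.26.

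The lowest of the other host gene miRNAs in the treated cells was miR-708-5p, from an intron of TENM4. It had 78.3 and 41.0 normalized reads in EV and 0 and 1 reads in R273H, so the fitted value depends on the pseudocount and is not given. The next was miR-378a-3p, from PPARGC1B, which encodes a coactivator of mitochondrial genes. Its levels were 1122 and 873 normalized reads with EV and 185 and 289 with R273H, a difference of -2.09 on the log2 scale (adjusted p = 0.000976, limma). Its other arm, miR-378a-5p, was the second nearest profile to miR-218-5p. The highest were miR-301a-5p, from SKA2, with 6.53 and 0 normalized reads in EV and 20.0 and 18.3 in R273H, and miR-582-5p, from PDE4D, with 2.61 and 2.83 in EV, 2 reads in each library, and 20.0 and 21.7 in R273H. Both passed the test (adjusted p = 0.0204 and 0.00651, limma). The EV libraries held only 5 and 0 reads of miR-301a-5p, so both fits depend on the pseudocount as well.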

How the data were processed

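The authors trimmed the Ion PGM reads, kept the lengths expected of small RNAs, aligned them to miRBase with SHRiMP and the remainder to GRCh37/hg19 with Novoalign, counted reads per feature and normalized them with DESeq. The deposited signal is the reads of a feature over the size factor of its library, in 3 separately normalized tables, 1 for each comparison of the study. Columns of the authors' own comparisons (fold changes and p-values) were not used, and 0 columns of per-sample values were left unmapped. All deposited values were whole multiples of 1 read within 0.01 read, and 0 values differed between tables, so reads were recovered.

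Groups were compared with lmFit and eBayes (intensity trend) of limma 3.58.1 in R 4.3.3 on log2(value + 1) for miRNAs with a mean of at least 3, with Benjamini-Hochberg adjustment over all miRNAs tested and a threshold of 0.05. edgeR 4.0.16 (quasi-likelihood, TMM) and DESeq2 1.42.0 were run on the recovered reads as alternatives, beside other pseudocounts, filters and scalings, limma without the trend, a replicate block, all 8 libraries in 1 fit and each library left out. RPM (reads per 1000000 miRNA reads) in the etoposide comparisons and on the common scale, and the pair of libraries without those that stand apart, were added after the data were seen. The scripts were tested on simulated data. The lists of miRNAs and the 5 miRNAs themselves were chosen with earlier results of these data known. Named are the 5, other products of their hairpins and hosts, the 2 nearest profiles of each, and the 2 highest and 2 lowest called miRNAs of the host gene list. Replicates of a group differed by more than sampling noise (chi-square per degree of freedom 32.3 to 70.4), so none was merged. At the depth of these libraries, 3 or fewer reads were taken as a limit. The Wilson intervals of the arm share cover counting error only, whereas the limma intervals use the spread between libraries. Positions are from GENCODE 44 lifted to GRCh37 and from matches of the mature sequences to that genome, and 63 of 66 pairs of miRNA gene and host on the list lay within the host on the same strand. Python 3.11.15, numpy 2.4.6, pandas 2.3.3, scipy 1.17.1 and matplotlib 3.10.9 were used for the rest.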

Additional observations from a re-analysis of the deposited data

How the results depend on the processing

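For R273H against EV under etoposide, 64 miRNAs and 4 of the 5 described were called (limma). The counts were 2 and 0 without a filter, 19 and 0 without the trend, 19 and 0 as RPM, 35 in all with DESeq2, and 6 to 21 and 0 to 1 with 1 library left out. With the replicate number as a block they were 18 and 2. The labels do not say whether same-numbered libraries of different groups belong together. The correlation of the deviations of same-numbered libraries was -0.24 in this comparison and -0.06 to 0.04 in the others. Whether libraries share a batch was not tested, and the block turned no direction. For etoposide in EV, 2 miRNAs were called, against 1 without the trend, with edgeR and with DESeq2, 0 as RPM, and 0 to 1 with 1 library left out. For etoposide in R273H, 0 were called (31 at an unadjusted p-value under 0.05), against 2 at a mean of at least 10, 1 with DESeq2, 2 as RPM, and 0 to 9 with 1 library left out, the 9 without R273H etoposide replicate 1. None of the 5 was called in either under any alternative. In EV, with 1 library left out, the log2 fold change ran from -0.052 to 0.274 for miR-218-5p and from -0.446 to 0.0395 for miR-625-5p, with the sign turned without EV untreated replicate 1. It ran from -0.819 to 0.0535 for miR-625-3p and from -1.33 to 0.212 for miR-940, with the sign turned without EV etoposide replicate 2. As RPM it turned for miR-625-5p (0.223), miR-625-3p (0.0407) and miR-935 (0.226). In R273H it turned for miR-625-5p (0.255) as RPM. A group left with 1 library was assumed to vary like the others. In the untreated cells all 5 stayed at least 2-fold lower in R273H under the 9 alternatives. These alternatives reuse the libraries that chose the 5, so the result is a description and no check. With 1 library left out, the mean 5p share of miR-625 ran from 79.4% to 83.2% in EV and from 83.7% to 86.1% in R273H. The shares of single libraries overlapped between the lines, at 76.3% to 87.9% in EV and 81.1% to 88.2% in R273H. Where a count changed, the cause was not tested. Depth limits miR-940 most, with 8 to 37 reads in a library.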
